A study of Homo sapiens with 2 samples.

Results

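The histone cluster genes were examined in a peak list of regulatory factor X6 (RFX6), a transcription factor, from chromatin immunoprecipitation sequencing (ChIP-seq). Members were the protein-coding genes of the RefSeq GRCh38 table whose symbol begins with H2AC, H2BC, H3C or H4C, or is one of H1-1 to H1-6. There were 70 members of 20037 protein-coding genes. Of these, 55 are on chromosome 6, 13 on chromosome 1, and H4C16 and H2BC12L are alone on chromosomes 12 and 21. The series holds 1 ChIP library of MHCC-97H cells, a human hepatocellular carcinoma line, overexpressing RFX6 with an HA tag, and 1 input library of the same line. The tag, carried on an expression plasmid, was the target of the antibody, and cells without the tagged protein were not analysed here. The authors deposited a peak list of the ChIP library, of which the 5019 distinct intervals on the autosomes and X entered the counts. Each interval has a whole-number score, from 13 to 170 with a median of 30, whose meaning is not stated. There was no replicate and the read depth was unknown. Confidence intervals below are 95% Wilson intervals, which cover the counting of genes only. RNA levels were not part of these data, so the cell type could not be checked against its markers.

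Histones package DNA into nucleosomes. A core of H2A, H2B, H3 and H4 wraps the DNA, and H1 binds the linker between cores. Most of the proteins come from clustered, replication-dependent genes, which are short, mostly lack introns, are switched on in S phase and give messages that end in a stem-loop in place of a poly(A) tail. Many H2A and H2B genes stand head to head over a shared promoter. Variant histones, such as H2A.Z and H3.3, come from genes outside the clusters that are expressed throughout the cell cycle. Proteins of the RFX family bind the X-box, an inverted repeat.

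Only H3C4 and H4C16 of the 70 histone cluster genes had an RFX6 interval within 1 kb of a gene end, which was 2.86% (0.787% to 9.83%). Without H4C16 and H2BC12L, which lie alone, it was 1 of 68 (1.47%, 0.26% to 7.87%). Among all protein-coding genes the share was 15.9%. It was 2.36% (1.32% to 4.18%) among the 466 other coding genes of at most 1 kb, 11 of which had an interval. The share of the histone genes was therefore well below that of coding genes as a whole and near that of other short genes. The members had a median length of 494 bp, against 24256 bp for the other coding genes. When intervals anywhere in the gene were counted as well, the members were still 2 of 70, while the share of all coding genes was 19.6%.

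The interval at H3C4, one of the genes for H3, lay at chr6:26197020-26197258. It was 239 bp wide and had a score of 42, and 1068 of the 5019 intervals scored higher. At H4C16, an H4 gene, 2 intervals were found. The nearer, at chr12:14770884-14771092, was 209 bp wide with a score of 28 and lay inside the gene, 39 bp from its start. The same interval lay 227 bp upstream of the start of the coding gene LOC105369669, which is on the same strand. To which of these genes it belongs was not tested. The other interval, at chr12:14769875-14770076, had a score of 26 and was 644 bp outside H4C16, within LOC105369669. The H3C4 interval thus scored above the median of the list, and both intervals at H4C16 scored below it.

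The promoter windows of RefSeq (GRCh38.p14), which run from 250 bases before to 50 bases after a start site, show where these intervals lay. H3C4 has an inner and an outer start site, on the minus strand. The window of the inner site is chr6:26197237-26197536, that of H4C16 chr12:14771082-14771381 on the minus strand, and that of the neighbouring H2AJ chr12:14774155-14774454 on the plus strand. They are printed because they are the histone promoters that the intervals reached in these places. Capitals mark the bases inside an interval.
H3C4, inner start: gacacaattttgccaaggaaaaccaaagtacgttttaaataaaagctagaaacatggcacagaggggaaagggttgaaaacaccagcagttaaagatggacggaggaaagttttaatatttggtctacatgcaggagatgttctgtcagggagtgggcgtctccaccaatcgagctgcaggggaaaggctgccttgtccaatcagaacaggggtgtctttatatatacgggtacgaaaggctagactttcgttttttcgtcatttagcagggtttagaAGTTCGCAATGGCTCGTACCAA
H4C16: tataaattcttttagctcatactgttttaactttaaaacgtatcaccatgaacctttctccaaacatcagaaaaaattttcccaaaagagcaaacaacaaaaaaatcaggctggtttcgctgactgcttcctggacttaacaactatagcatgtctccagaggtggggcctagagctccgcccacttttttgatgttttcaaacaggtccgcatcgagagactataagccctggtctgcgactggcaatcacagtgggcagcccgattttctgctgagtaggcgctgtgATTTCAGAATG
H2AJ: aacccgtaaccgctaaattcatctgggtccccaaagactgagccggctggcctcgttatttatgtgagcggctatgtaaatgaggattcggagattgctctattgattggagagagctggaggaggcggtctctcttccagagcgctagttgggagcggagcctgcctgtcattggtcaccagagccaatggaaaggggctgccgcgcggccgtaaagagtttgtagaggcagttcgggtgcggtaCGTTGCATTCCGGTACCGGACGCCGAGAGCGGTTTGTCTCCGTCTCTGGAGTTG

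In all 3 windows the interval took in only the downstream end, with 22 bases at H3C4, 11 at H4C16 and 54 at H2AJ. The H3C4 interval and the nearer H4C16 interval had nearly the same place relative to the start. At H3C4 the interval ran from 28 to 266 bp downstream of the inner start, with its midpoint at 147 bp. At H4C16 the nearer interval ran from 39 to 247 bp downstream, with its midpoint at 143 bp. Across the list, 2696 intervals had a midpoint within 1 kb of a coding start in this table. Their median position was 56.5 bp downstream, with quartiles at -124 and 203 bp, and 59.8% lay downstream. The positions at H3C4 and H4C16 were inside these quartiles. At H2AJ, a gene for an H2A variant whose start is 3273 bp beyond H4C16, the interval had a score of 55 and ran from 4 bp upstream to 487 bp downstream.

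**Figure D1:**
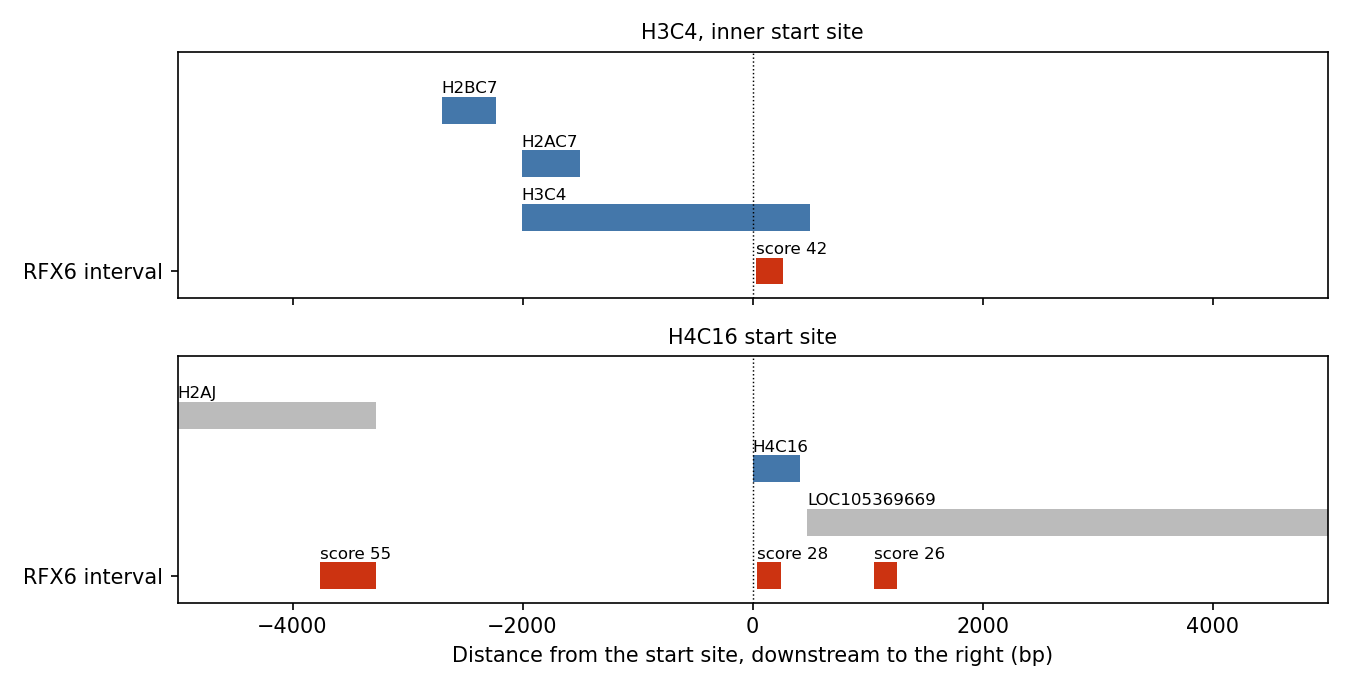
Genes (blue for histone cluster genes, grey for others, cut off at the axis ends) and RFX6 intervals (red, with their score) by distance in bp from the inner start of H3C4 and from the start of H4C16, drawn in the direction of transcription. The H3C4 interval runs from 28 to 266 bp and the nearer H4C16 interval from 39 to 247 bp, while the outer start of H3C4, which is the start of H2AC7, has no interval near it.

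The outer start of H3C4 coincides with the start of H2AC7, an H2A gene. The shared window, chr6:26199244-26199543 on the minus strand, lies between H2AC7 and the H2B gene H2BC7 and is a typical head-to-head promoter. It is printed with that of H2BC21, chr1:149886633-149886932 on the minus strand, whose partner is H2AC20, as examples of head-to-head promoters without an interval. Capitals mark the motifs CCAAT, ATTTGCAT and TATAAA on either strand.
H2AC7 and outer start of H3C4: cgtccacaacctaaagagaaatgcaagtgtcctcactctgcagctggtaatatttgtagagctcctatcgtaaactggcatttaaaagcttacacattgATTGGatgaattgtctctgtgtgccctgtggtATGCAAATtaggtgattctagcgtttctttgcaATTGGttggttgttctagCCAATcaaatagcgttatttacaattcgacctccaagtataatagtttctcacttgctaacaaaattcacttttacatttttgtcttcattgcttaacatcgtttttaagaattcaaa
H2BC21: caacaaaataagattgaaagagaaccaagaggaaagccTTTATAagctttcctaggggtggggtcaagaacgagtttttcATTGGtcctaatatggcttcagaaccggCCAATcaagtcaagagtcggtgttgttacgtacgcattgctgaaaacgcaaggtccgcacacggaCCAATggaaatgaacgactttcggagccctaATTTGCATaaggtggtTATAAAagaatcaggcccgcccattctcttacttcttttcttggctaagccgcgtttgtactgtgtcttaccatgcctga

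H2AC7 was the nearest of the 68 members without an interval, at 1526 bp from the H3C4 interval. It was followed by H2BC7 at 2258 bp, by the H4 genes H4C5 at 7352 bp and H4C4 at 7908 bp, and by the H2B gene H2BC6 at 12790 bp. Among the members with a start site in the promoter table, 12 pairs had start sites facing away from each other with 194 to 248 bp between them, and 11 of them joined an H2A to an H2B gene. The exception was H3C4 with H2BC7, which uses the outer start. This pair has the same start sites as H2AC7 with H2BC7, so that promoter was counted for both pairs. The number of pairs with an interval inside 1 kb of a start was 0 of 12. The 6 members without a window in that table, H2AC12 among them, were not paired.

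Next, the members were split by cluster, joining members less than 500 kb apart. On chromosome 6, 1 of 55 members had an interval (1.82%, 0.322% to 9.61%), compared with 161 of 994 other coding genes on that chromosome (16.2%). The largest cluster, chr6:25726063-26285534, holds 34 members from H2AC1 to H4C8, and the H3C4 interval was the single interval in it. A cluster of 5 members, chr6:27132316-27147562, and a cluster of 16 members, chr6:27807479-27893891, had none. Their closest members were 325 kb and 331 kb from an interval, respectively. On chromosome 1, 0 of 13 members had an interval, with an upper limit of 22.8%, compared with 296 of 2049 other coding genes (14.4%). The 11 members from H2BC18 to H2AC21, chr1:149782689-149887965, were 39.7 to 115 kb from an interval, the nearest being at SF3B4. The pair H2AC25 and H2BC26, chr1:228457364-228458558, was 277 kb away. The limits for chromosomes 6 and 1 overlap, and a difference between them was not detectable with these numbers. H2BC12L on chromosome 21 was 154 kb from an interval.

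Long distances were common in the list. The median distance from a member to the nearest interval was 128 kb, and 37 of 70 (52.9%) were more than 100 kb away. Among the other coding genes, the median was 112 kb and 52% were more than 100 kb away. The histone genes were thus about as far from the nearest interval as other genes, although a smaller share had one at the gene itself. Neighbouring members share their nearest interval, and for all 34 members of the largest cluster it was that at H3C4. The distances of members therefore describe a few places and are not independent values.

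**Figure D2:**
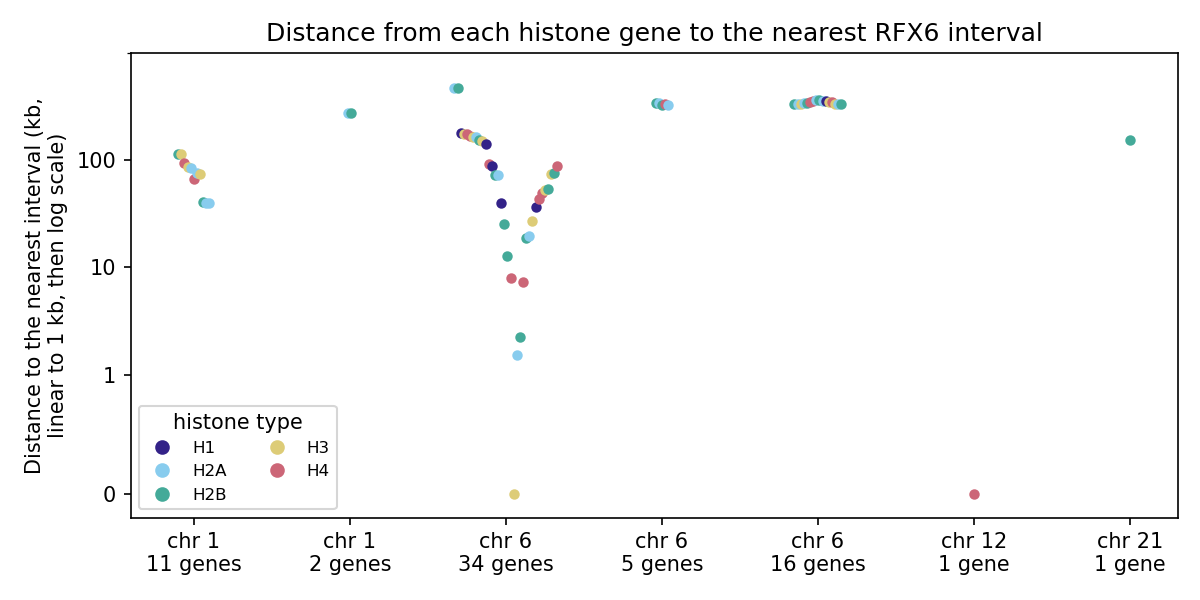
Distance in kb from the body of each of the 70 histone cluster genes to the nearest RFX6 interval, by cluster in genome order, coloured by histone type (the axis is linear up to 1 kb and logarithmic above). H3C4 and H4C16 are at 0, H2AC7 and H2BC7 follow at 1526 and 2258 bp, and the 21 members of the smaller chromosome 6 clusters lie at 325 kb or more.

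By histone type, 0 of 6 H1 genes (upper limit 39%), 0 of 17 H2A genes (18.4%) and 0 of 19 H2B genes (16.8%) had an interval. For the H3 genes it was 1 of 13 (7.69%, 1.37% to 33.3%), namely H3C4, and for the H4 genes 1 of 15 (6.67%, 1.19% to 29.8%), namely H4C16. These limits overlap, and a difference between the types was not detectable with these numbers. H1-1 to H1-5, the somatic linker histones, were 36954 bp (H1-3) to 357570 bp (H1-5) from an interval, and the testis gene H1-6 was 88885 bp away. H3C4 is the longest H3 member but one, 2510 bp, because of its outer start, and H4C16 is 412 bp long. Of the 62 members of at most 1 kb, 1 had an interval, and of the 8 longer members also 1.

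**Figure D3:**
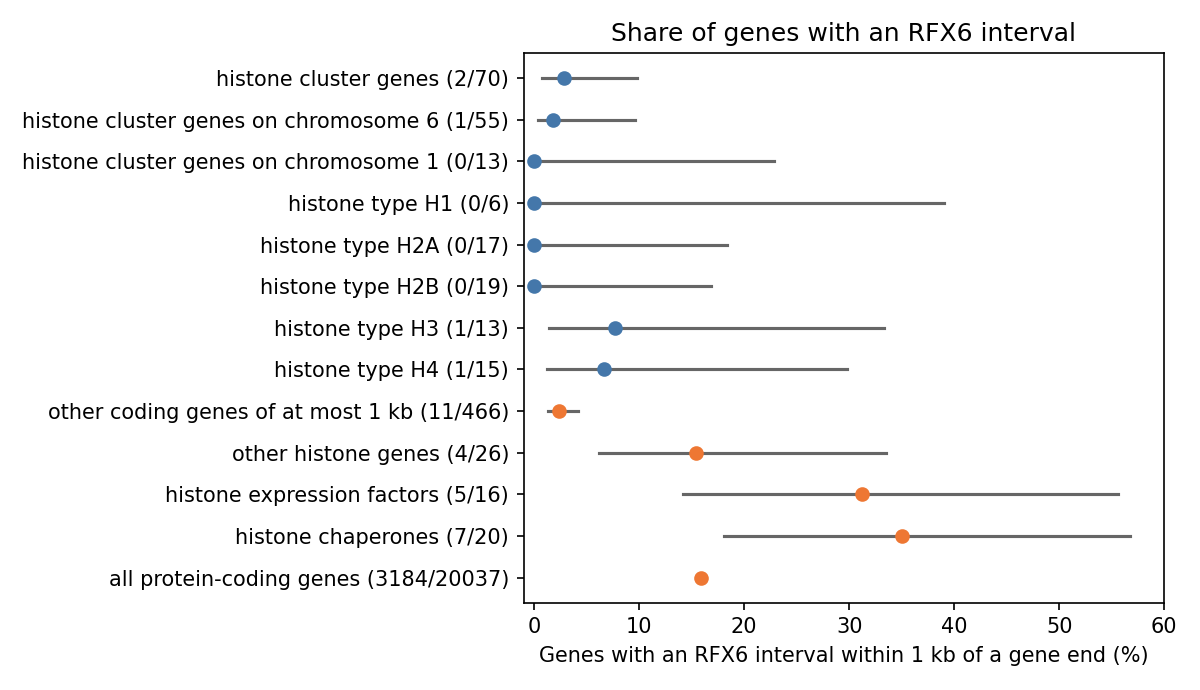
Percentage of genes with an RFX6 interval within 1 kb of a gene end, with 95% Wilson intervals as lines and counts in the labels, for the histone cluster genes and their subgroups (blue) and for other gene groups (orange). The histone cluster genes, at 2.86%, are beside the short coding genes at 2.36% and below all protein-coding genes at 15.9%.

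Genes for tRNA, the products of RNA polymerase III, are interspersed with the histone genes of chromosome 6. Within the spans of the clusters, widened by 100 kb to each side, there were 32 tRNA genes on chromosome 6 and 2 on chromosome 1, and 0 of these 34 had an interval within 1 kb (upper limit 10.2%). The share among all 443 tRNA genes was 4.06%, as 18 had an interval, and this value lies below that upper limit. The whole stretch of 2.17 Mb between the first and the last member on chromosome 6 holds 98 tRNA genes, and again 0 had an interval. On chromosome 6 as a whole, 1 of 155 tRNA genes had one (0.645%, 0.114% to 3.56%), and this upper limit lies below 4.06%. The 4.06% includes the chromosome 6 genes, and similarity between tRNA gene copies was not examined. This comparison is therefore descriptive only, also because some neighbouring tRNA genes shared an interval. On the rest of the genome outside the widened spans, 18 of 409 had one (4.40%, 2.80% to 6.85%), among them a single gene on chromosome 6, TRL-TAA1-1, far from the histone genes at chr6:144216547-144216629. The tRNA gene closest to H3C4, TRX-CAT1-2, was 87233 bp away from it.

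The other coding genes in the same places were also counted. Inside the cluster spans of chromosomes 6 and 1 there were 8, among them the iron regulator HFE, the transporter genes SLC17A1, SLC17A2, SLC17A3 and SLC17A4, and TRIM38, and 0 of 8 had an interval (upper limit 32.4%). In the whole stretch on chromosome 6, 2 of 20 other coding genes had one. These were ABT1, with an interval of score 42 at chr6:26597026-26597387, and the zinc finger gene ZNF184, with an interval of score 37 at chr6:27472525-27472730. Together with that at H3C4 they were the 3 intervals in the stretch. Of the 238 intervals on chromosome 6, the next lay beyond the last member, at the zinc finger gene ZSCAN9, with a score of 31.

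**Figure D4:**
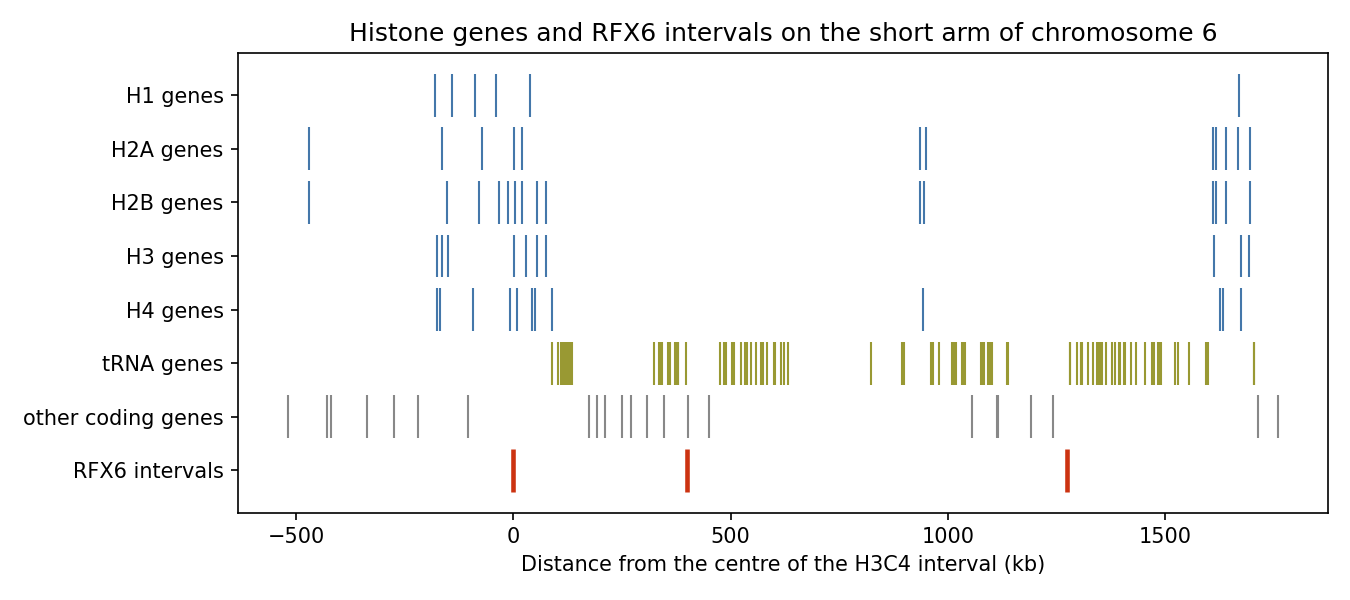
Positions of the 55 histone cluster genes by type, tRNA genes, other coding genes and RFX6 intervals on the short arm of chromosome 6, as distance in kb from the centre of the H3C4 interval. A single interval falls among the histone genes, the 2 others are at ABT1 and ZNF184, and no tRNA gene in the stretch has an interval within 1 kb.

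Histone genes outside the symbol rule of the members were then compared. Of 26 such genes, 4 had one at a gene end by the same rule (15.4%, 6.15% to 33.5%), close to the 15.9% of all coding genes. The share of the cluster genes, 2.86%, was lower, but its limits overlap with these. H2AZ1 and H2AZ2, the genes for H2A.Z, had intervals across their starts, of score 18 at chr4:99950150-99950365 and of score 67 at chr7:44847781-44848173. The latter was surpassed by 164 intervals in the list. H2AJ was described above. The replication-independent linker histone gene H1-10 had an interval of score 39 that ended 92 bp upstream of its start. A further gene, H3-3A, which encodes H3.3, had an interval of score 17 inside the gene, 1143 bp from its end and 258 to 457 bp downstream of an inner start site. H3-3B, H2AX, CENPA, MACROH2A1 and MACROH2A2 had no interval.

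Genes that act on histone synthesis were counted next. Of 16 histone expression factors, 5 had an interval at a gene end (31.2%, 14.2% to 55.6%). These limits hold the 15.9% of all coding genes and lie above those of the cluster genes. The list was chosen with results of these data known, so this comparison is descriptive only. NPAT, the coactivator of the replication-dependent histone genes, had an interval of score 35 that ended 116 bp upstream of its start. HINFP, which binds H4 promoters, had one of score 43 across its start. CPSF2 (score 32) and SYMPK (score 17) encode parts of the complex that cleaves the 3' end of the message. CCNE2 encodes cyclin E2, whose kinase acts on NPAT, and had 4 intervals in its first part, of scores 39, 80, 22 and 21, of which those of 22 and 21 were within 1 kb of the gene end. The stem-loop binding protein gene SLBP, and CASP8AP2, LSM10 and LSM11 had none.

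Of 20 histone chaperone genes, 7 had an interval at a gene end (35%, 18.1% to 56.7%). The share of all coding genes, 15.9%, was a little under these limits, and the limits of the cluster genes were lower still. Both lists were chosen with results of these data known, so the comparisons of their limits are descriptive only. The chaperone genes with an interval were ASF1B and NASP, which carry H3 and H4, CHAF1B of the replication-coupled assembly factor, UBN1 of the HIRA complex, MCM2 of the replicative helicase, TONSL and NAP1L4. The highest score among them was 60 at MCM2, 45 bp upstream of the start, followed by 56 at NAP1L4 and 50 at TONSL. The genes with an interval in these 2 lists were 14480 to 65424 bp long, against the median of 494 bp of the cluster genes. The part of gene length in the difference was not tested.

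**Figure D5:**
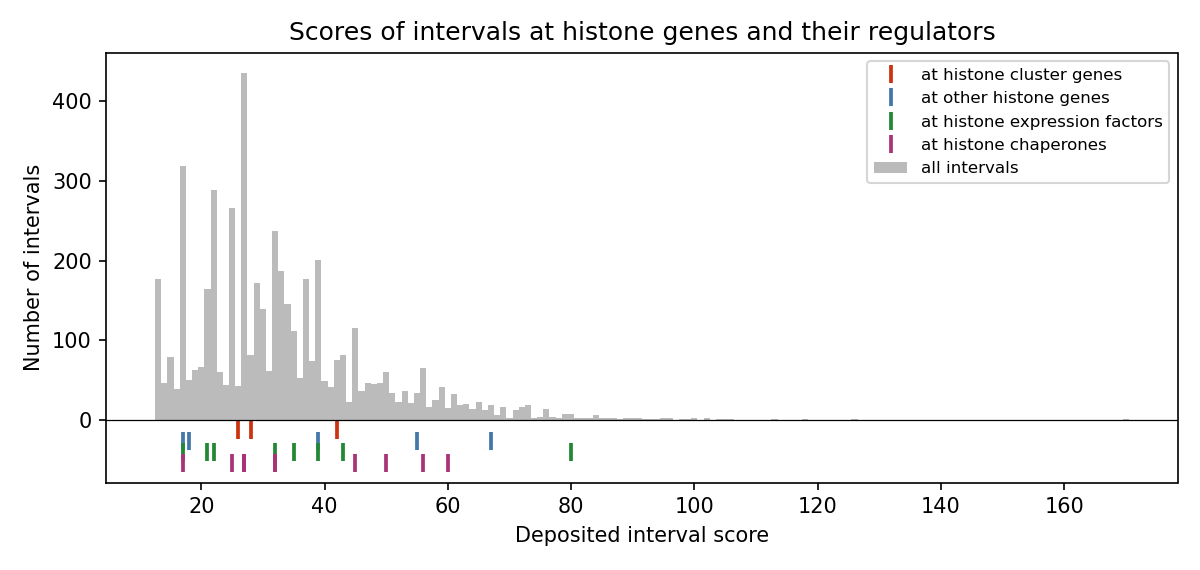
Number of intervals in the list by deposited score (grey bars), with the scores of the intervals at histone cluster genes and at the 3 comparison lists as marks below the axis. The intervals at histone cluster genes scored 26, 28 and 42, whereas those at the other lists ranged from 17 to 80.

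Promoter windows were matched for 64 of the 70 members, giving 67 distinct windows, and were compared with 22078 windows of coding genes. CCAAT, the site of NF-Y, was in 57 of 67 histone windows (85.1%) on either strand, against 34.7% of all coding windows. It was in every window of the H1, H2A, H2B and H3 genes, but in 3 of 13 of the H4 genes (23.1%). TATAAA was in 67.2%, against 9.50%. The octamer ATTTGCAT, the site of OCT1, was in 38.8%, against 1.66%, and was held by 15 of 20 H2B windows and 11 of 16 H2A windows. The window shared by H2AC7 and H3C4 was counted under both H2A and H3 here. The E2F-type motif TTTNNCGC was in 31.3%, against 8.30%. None of these motifs contains another.

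For the X-box, the half-site GTTGCC was in 5 of 67 histone windows (7.46%, 3.23% to 16.3%), against 12.6% of all coding windows. An X-box-like arrangement, GTNNCC followed after 0 to 3 bases by GGNNAC, was in 0 of 67 (upper limit 5.42%), against 4.28%. A half-site can be part of the longer arrangement. Both shares of the coding windows were inside the limits of the histone windows. The inner window of H3C4 held CCAAT at 85 and 53 bases before the start and TATAAA on the opposite strand at 33 bases before it. The H4C16 window held TATAAA at its first base, 250 bases before the start, and none of the other motifs searched. Neither window held GTTGCC or the longer arrangement. A match is a description of the letters, and no match says only that they are not in the window.

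Near-identical gene copies bear on these counts, since reads that fit several copies may be dropped or shared out, and how they were treated is not given in the sources used here. Among the histone windows, 3 pairs were alike in at least 80% of bases when compared without gaps. Windows were lined up at their start sites, so copies with shifted start sites could be missed. More members may thus have near-identical copies. H4C14 and H4C15 on chromosome 1 had the same 300 bases. H4C11 and H4C12 on chromosome 6 were alike in 98.3% and differed at 5 bases, and H2AC13 and H2AC14 in 84%. All 6 genes were without an interval. The windows are printed to show how little separates the copies, namely chr1:149832407-149832706 (plus strand), which stands for both genes, chr6:27823842-27824141 (plus strand) and chr6:27831511-27831810 (minus strand), with capitals at the 5 bases that differ.
H4C14 and H4C15: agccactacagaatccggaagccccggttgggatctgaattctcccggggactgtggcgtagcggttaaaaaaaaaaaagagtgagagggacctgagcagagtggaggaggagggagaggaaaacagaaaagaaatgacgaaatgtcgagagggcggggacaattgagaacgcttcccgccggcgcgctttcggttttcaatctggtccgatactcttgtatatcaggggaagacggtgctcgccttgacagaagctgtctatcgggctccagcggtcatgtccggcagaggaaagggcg
H4C11: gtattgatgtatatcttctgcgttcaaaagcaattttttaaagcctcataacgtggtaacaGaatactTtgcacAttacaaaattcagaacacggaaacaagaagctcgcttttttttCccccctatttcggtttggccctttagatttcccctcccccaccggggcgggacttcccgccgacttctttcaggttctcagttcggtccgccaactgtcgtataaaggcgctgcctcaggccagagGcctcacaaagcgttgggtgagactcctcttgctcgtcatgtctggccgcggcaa
H4C12: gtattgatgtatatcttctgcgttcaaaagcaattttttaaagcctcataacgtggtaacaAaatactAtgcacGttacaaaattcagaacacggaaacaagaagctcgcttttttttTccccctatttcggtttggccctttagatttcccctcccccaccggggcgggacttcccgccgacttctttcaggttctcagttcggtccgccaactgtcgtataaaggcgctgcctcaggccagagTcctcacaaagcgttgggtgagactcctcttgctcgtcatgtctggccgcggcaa

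The share of reads lost at such copies was not tested. The inner window of H3C4 and the window of H4C16 had no other member window alike in 80% of bases. These windows hold only 22 of the 239 bases of the H3C4 interval and 11 of the 209 bases of the nearer H4C16 interval. The rest of both intervals, and the gene bodies of the members, were not compared. The window comparison therefore cannot show if reads under these intervals fit a single place. Whether reads at a copy failed to map to a single place, or RFX6 was not enriched there, cannot be told apart from the list.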

How the data were processed

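Chromatin of HA-RFX6-overexpressing MHCC-97H cells was precipitated and sequenced, and peaks were detected with MACS2 2.1.0.2 according to the submitters' processing notes. The aligner and the treatment of reads with several positions are not given in the sources used here. The authors deposited a list with a chromosome, start, end, name and score for each peak, and the unit of the score is not stated. It served only to rank and filter. The submitters' notes name GRCh37, but the coordinates fitted GRCh38, which was used here. The midpoints of 60.8% of intervals were within 1 kb of a coding gene end in RefSeq GRCh38.p14. This share was 67.6% on chromosome 6, 61.3% on chromosome 1 and 59.8% on chromosome 12. No interval ended beyond the last gene of a chromosome. Neither check was run with GRCh37, so the fit to the builds was not compared. The sources used here do not say if the peaks were called against the input, of which no file was analysed here.

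Of 6214 lines, 1 with split digits was repaired, repeated intervals were counted once with their highest score, and 3 mitochondrial intervals were left out. Starts were taken as 0-based and are given 1-based. A gene was counted when an interval overlapped by at least 1 bp the region within 1 kb of either end (tRNA genes: the gene or 1 kb beside it). There was 1 library per group, so no test was made. The members and gene lists were chosen with earlier results of these data known. Named were all members and list genes with an interval, and the 5 nearest members without one. Promoters of the members with an interval are printed. The other printed promoters, and the other genes named without an interval, were chosen after the values were seen. An item of the list of other histone genes is not reported here and was left out of its counts. Motifs were searched on both strands. The assignment was tested on simulated data. Python 3.11.15, numpy 2.4.6, pandas 2.3.3, scipy 1.17.1 and matplotlib 3.10.9 were used.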

Additional observations from a re-analysis of the deposited data

How the results depend on the processing

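The number of histone cluster genes with an interval was 2 with a score of at least 20, a window of 500 bp and interval midpoints. It was also 2 with merging of intervals closer than 1 kb, gene bodies included, start sites in place of both ends, and assignment to the nearest coding gene. In each of these the genes were H3C4 and H4C16 (2.86%). In the same order, the share of all coding genes was 14.1%, 14.2%, 15.5%, 15.9%, 19.6%, 13.1% and 13.6%. With a score of at least 30 the number of histone cluster genes was 1 (H3C4), and the share of all coding genes was 9.78%. H4C16 dropped out, so that the chromosomes other than 6 and 1 and the H4 genes both fell to 0. With a window of 2 kb the number was 3 (4.29%, against 17.4% of all coding genes), as H2AC7 was added. This gave 2 genes on chromosome 6 and 1 H2A gene. With 5 kb it was 4, as H2BC7 was added, which gave 3 genes on chromosome 6, 1 H2A gene and 1 H2B gene, while the share of all coding genes was 19.9%. Wider windows raise these counts by construction. The number of tRNA genes outside the histone clusters rose from 18 to 31 with 5 kb. In the alternatives run for each, the 13 members on chromosome 1, the tRNA genes in the clusters and the other coding genes in the spans remained at 0. Against coding genes of at most 1 kb, the background fell from 15.9% to 2.36%.

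No paired analysis was possible because the ChIP had a single library with no replicate. Leaving out a replicate was not possible for the same reason. The depth was unknown, so weak enrichment below the peak threshold cannot be judged.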

Other observations

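The position of the TATA motif was looked at after the motif counts were seen. TATAAA on the coding strand began 20 to 40 bases before the start in 36 of 67 histone windows (53.7%), against 3.05% of the 22078 coding windows. The histone promoters thus held this motif at its usual distance from the start more often than other genes. Neither H4C16 nor either start of H3C4 was among them.

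Of 19 histone pseudogenes recognised by symbol, 0 had an interval within 1 kb (upper limit 16.8%). Of these, 11 lie in the spans of the clusters.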
